A study of Mus musculus with 7 samples.

Results

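Among 7 whole mouse embryos at E11.5, 3 held under 50 FPKM of Afp transcripts and are called Afp-low here, and the other 4 are called Afp-high. FPKM is a count of fragments scaled to the length of the transcript and to the depth of the library. The Afp-low embryos were the KO embryo KOAC10-5 and the WT embryos KOAC10-7 and KOAC10-2. The Afp-high embryos were the KO embryos KOAC8-6 and KOAC10-8 and the WT embryos KOAC8-1 and KOAC9-1. No embryo was near the limit, since the highest Afp value of the Afp-low embryos was 5.18 FPKM and the lowest of the Afp-high embryos was 255 FPKM. The groups were chosen on Afp in the same libraries, so the difference between them in any gene is given as a description, without a p-value.

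The study asked how the loss of SLMAP3, a tail-anchored membrane protein, alters the transcripts of the embryo. All embryos were of the B6C3F1 strain and were taken at embryonic day 11.5, and the KO embryos carried the deletion of exon 3 of Slmap on both alleles. The deletion came from loxP sites cut by CMV-cre in an earlier generation, and the embryos were bred from heterozygous parents without cre. The WT embryos carried no deleted allele, no treatment is given in the labels, and each embryo gave 1 library, with the tail taken off for genotyping. All 7 have KOAC labels, followed by a series and an embryo number, and what the series stands for is not given in the labels.

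The fetal liver buds from the foregut endoderm. Its hepatoblasts, the shared precursors of hepatocytes and bile duct cells, switch on the genes of plasma proteins early under factors such as HNF4A, FOXA and C/EBP proteins. At the same stages the liver is seeded by blood progenitors and becomes the main site of definitive red blood cell formation, while primitive red cells from the yolk sac already circulate. Hepatoblast and liver blood transcripts in a whole embryo therefore come largely, though not only, from one organ.

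The deposited table holds 25461 genes, of which 16095 averaged at least 1 FPKM over the 7 embryos and were compared. The sum of FPKM ran from 770063 to 861448 per embryo. The relative depth of the libraries, read from the steps between low FPKM values, was 0.81 to 1.05 in the Afp-low and 0.89 to 1.22 in the Afp-high embryos, and counts per gene were not analysed here. Slmap, the targeted gene, was at 16.0 to 19.6 FPKM in the KO and 22.8 to 31.2 FPKM in the WT embryos. Xist and the Y-linked genes marked KOAC10-8 and KOAC9-1 as male and the other 5 embryos as female, so all 3 Afp-low embryos were female. The Y-linked gene Eif2s3y was accordingly among the genes called lower, and the part of sex in the other differences was not tested beyond a fit with Xist as a covariate. All 3 Afp-low embryos carry KOAC10 labels, as does 1 of the 4 Afp-high embryos (Fisher's exact test, two-sided, p = 0.143). No split of these embryos could be more extreme in this direction, so the p-value could not be smaller and nothing is read from it. The Afp-low embryos included 1 of 3 KO and 2 of 4 WT embryos (Fisher's exact test, two-sided, p = 1.0). Afp itself differed between KO and WT embryos by 1.38 on the log2(FPKM + 1) scale, higher in KO, with overlapping genotypes (exact permutation test over 35 splits, two-sided, p = 0.629).

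The promoters of 4 plasma protein genes that were among the lowest in the Afp-low embryos are shown, because each holds a recognition sequence of C/EBP proteins, which are among the hepatoblast factors named above. They were read from the RefSeq promoter table of GRCm38.p6, which gives 250 bases before and 50 bases after each gene start. Afp, the main plasma carrier protein of the fetus, has its promoter at chr5:90490464-90490763 (plus strand). Alb, the albumin gene next to it, has its promoter at chr5:90460620-90460919 (plus strand). Serpina1b codes for an inhibitor of neutrophil elastase, with its promoter at chr12:103738140-103738439 (minus strand), and Fga for the alpha chain of fibrinogen, at chr3:83025903-83026202 (plus strand). Capitals mark the letters TTGCNNAA, a C/EBP site, on either strand.
Afp: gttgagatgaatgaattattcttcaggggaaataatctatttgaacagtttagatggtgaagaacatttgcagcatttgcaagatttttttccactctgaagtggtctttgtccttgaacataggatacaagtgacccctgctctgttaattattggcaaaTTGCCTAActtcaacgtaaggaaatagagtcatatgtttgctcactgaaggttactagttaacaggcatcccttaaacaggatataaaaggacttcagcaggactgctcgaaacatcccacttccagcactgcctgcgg
Alb: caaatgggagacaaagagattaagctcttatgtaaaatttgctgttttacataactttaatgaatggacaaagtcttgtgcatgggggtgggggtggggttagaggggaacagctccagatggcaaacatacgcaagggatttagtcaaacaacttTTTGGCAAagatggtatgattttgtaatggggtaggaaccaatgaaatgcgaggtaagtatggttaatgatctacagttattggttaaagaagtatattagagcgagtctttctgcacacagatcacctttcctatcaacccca
Serpina1b: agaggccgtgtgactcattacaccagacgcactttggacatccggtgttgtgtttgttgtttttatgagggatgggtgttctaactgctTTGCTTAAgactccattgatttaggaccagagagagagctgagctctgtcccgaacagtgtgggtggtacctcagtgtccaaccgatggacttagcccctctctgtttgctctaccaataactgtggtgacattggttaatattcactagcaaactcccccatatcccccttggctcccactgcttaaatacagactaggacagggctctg
Fga: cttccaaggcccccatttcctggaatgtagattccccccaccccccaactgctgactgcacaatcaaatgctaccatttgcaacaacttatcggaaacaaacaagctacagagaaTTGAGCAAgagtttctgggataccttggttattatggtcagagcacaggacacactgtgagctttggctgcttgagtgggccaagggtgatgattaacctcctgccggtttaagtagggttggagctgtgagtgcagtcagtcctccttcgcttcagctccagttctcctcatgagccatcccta

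Each of the 4 promoters held 1 match. The C/EBP match began 89 bases before the gene start in Afp, 94 in Alb, 161 in Serpina1b and 135 in Fga. Of the 30 liver secreted proteins called lower in the next paragraphs, 25 were matched to the promoter table. TTGCNNAA was present in the promoter of 16 of these 25 genes (64.0%), against 9.61% of 11144 compared genes with a promoter and 10.797% of all 32851 promoters. AGATAA, for GATA factors, was present in 3 of the 25 (12%, against 7.98% of the compared genes and 11.2% of all promoters), and TGTTTAC, for FOXA factors, in 2 (8.0%, against 3.06% and 3.65%). CAAAGTCCA, for HNF4, was present in 0 of the 25, 0.413% of the compared genes and 0.475% of all promoters. The 25 include Afp, which set the groups, and 4 near-copies of Serpina1, and a gene was counted once where either of its promoters matched. Without Afp and with the copies counted as 1 gene, TTGCNNAA was present in 12 of 21 genes (57.1%), and over single promoters in 16 of 27 (59.3%), counts added after the data were seen. Over single promoters, the FOXA motif was present in 2 of 27 (7.41%, against 3.65% of all promoters). The GATA motif was present in 3 of 27 (11.1%, against 11.2% of all promoters). A match is a run of letters and not a measured binding site.

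The plasma proteins of the liver, Afp among them, stood far apart between the groups. Afp was at 5.18, 1.30 and 2.49 FPKM in the Afp-low embryos KOAC10-5, KOAC10-7 and KOAC10-2, in the order kept from here on. It was at 255, 308, 376 and 278 FPKM in the Afp-high embryos KOAC8-6, KOAC10-8, KOAC8-1 and KOAC9-1, likewise in this order. Afp lies on chromosome 5 of GRCm38 from 90490737 to 90508907, and its Afp-low mean of 2.99 ± 1.99 FPKM (SD, n = 3) was 0.984% of its Afp-high mean of 304 ± 52.5 FPKM (SD, n = 4). Alb, upstream of Afp on the same chromosome from 90460897 to 90476602, was at 1.63, 0.313 and 0.885 FPKM in the Afp-low and at 70.4, 65.2, 180 and 136 FPKM in the Afp-high embryos. Albumin is the most abundant protein of adult plasma, and its transcripts were at 0.836% of the Afp-high mean. With genotype as a covariate in limma, the difference between Afp-low and Afp-high embryos was -6.31 (standard error 0.39) for Afp and -5.87 (standard error 0.51) for Alb on the log2(FPKM + 1) scale.

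The genes of 2 apolipoproteins of high-density lipoprotein, liver markers that the rule did not use, followed the same split. Apoa1 was at 1.06, 0.410 and 1.90 FPKM in the Afp-low embryos against 21.99, 27.4, 47.9 and 37.2 FPKM in the Afp-high embryos. Apoa2 was at 1.86, 2.10 and 1.78 FPKM against 40.5, 65.8, 91.0 and 77.7 FPKM. Neither gene overlapped between the groups, and 7.12% of all compared genes were below in all 3 Afp-low embryos. The mean left in the Afp-low embryos was 3.34% of the Afp-high mean for Apoa1 and 2.78% for Apoa2. Alb, Apoa1 and Apoa2 were thus low in the same 3 embryos as Afp, which set the groups. None of the 4 markers was listed at 0 in any embryo.

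A gene was called lower when all 3 Afp-low embryos were below all 4 Afp-high embryos and the genotype-adjusted difference was -1 or less on the log2(FPKM + 1) scale. This rule called 99 of the 16095 genes lower (0.615%) and, in the other direction, 14 higher (0.087%), with a median difference over all genes of -0.01. Since the contrast set the groups, nothing is read from these shares. Of 48 liver secreted proteins listed, 46 were in the table and 35 averaged at least 1 FPKM, which many reached through the Afp-high embryos alone. Of the 35, 30 were called lower and 0 higher, 33 were below in all 3 Afp-low embryos (7.12% of all compared genes were), and the median difference was -2.38. Of the 11 under 1 FPKM, 9 were also below in all 3 Afp-low embryos (4.73% of all genes under 1 FPKM were), among them Itih1 at 0.00957, 0 and 0.00621 FPKM against 1.04, 1.35, 1.40 and 0.881 FPKM. In bulk libraries, fewer cells of a type and less RNA per cell cannot be told apart.

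**Figure D1:**
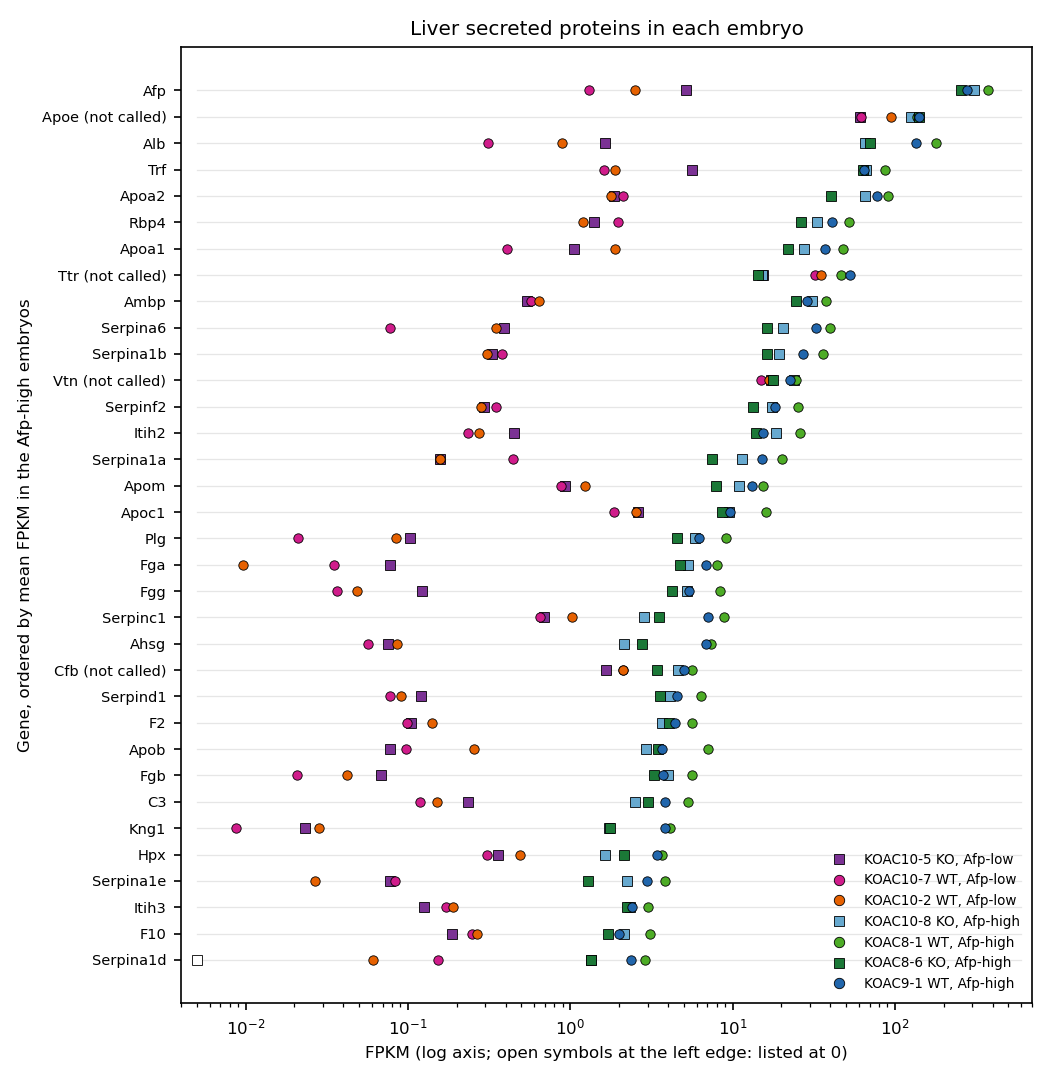
FPKM on a log axis of 34 of the 35 liver secreted proteins with a mean of at least 1 FPKM, with 1 symbol per embryo (squares KO, circles WT) and genes ordered by their mean in the Afp-high embryos. The 30 called genes leave an empty gap between the 3 Afp-low embryos and the 4 Afp-high embryos, while Apoe, Ttr, Vtn and Cfb stand close together or overlap.

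The remaining levels were low in every class of plasma protein. Among carriers, Trf, which codes for the iron carrier transferrin, was at 5.65, 1.61 and 1.90 FPKM against 63.9, 66.2, 86.5 and 64.5 FPKM. Its levels are uncertain, because 58.5% of its stretches of 50 bases are shared with Gm20425 (ENSMUSG00000090639), an overlapping gene. Rbp4, the plasma carrier of retinol, was at 1.41, 1.97 and 1.21 FPKM against 26.5, 33.0, 51.8 and 41.3 FPKM. The Afp-low mean was 4.34% of the Afp-high mean for Trf and 4.01% for Rbp4, close to the shares of Apoa1 and Apoa2. Ambp, the precursor of alpha-1-microglobulin and bikunin, was at 0.544, 0.574 and 0.643 FPKM against 24.5, 30.8, 37.9 and 28.6 FPKM. Its spread over the Afp-low embryos was narrow, with a mean of 0.587 ± 0.0507 FPKM (SD, n = 3).

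Several coagulation and fibrinolysis genes were left at a few percent of the Afp-high mean or less. Fga was at 0.0776, 0.0349 and 0.00961 FPKM in the Afp-low embryos and at 4.74, 5.33, 8.08 and 6.91 FPKM in the Afp-high embryos. The 3 fibrinogen chains Fga, Fgb and Fgg were left at 0.649%, 1.05% and 1.19% of the Afp-high mean. Plg, the precursor of the clot-dissolving protease plasmin, was at 0.103, 0.0210 and 0.0843 FPKM against 4.54, 5.84, 9.08 and 6.24 FPKM. Prothrombin, coded by F2, was at 0.105, 0.0990 and 0.140 FPKM against 4.04, 3.68, 5.67 and 4.42 FPKM. Serpinc1, the antithrombin gene, kept a larger share, with 0.685, 0.652 and 1.02 FPKM against 3.54, 2.85, 8.80 and 7.11 FPKM, or 14.1% of the Afp-high mean. So did the coagulation factor gene F10, at 0.187, 0.247 and 0.266 FPKM against 1.71, 2.15, 3.11 and 1.98 FPKM, or 10.4%. The range over the 30 called genes was 0.649% for Fga to 21.3% for Apoc1, with a median of 2.24%.

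Other members of the serpin family, most of them protease inhibitors, were left at smaller shares than Serpinc1. Serpina6, the plasma carrier of glucocorticoids, was at 0.389, 0.0773 and 0.349 FPKM against 16.4, 20.3, 40.1 and 32.5 FPKM, 0.994% of the Afp-high mean. Serpina1b was at 0.331, 0.382 and 0.307 FPKM against 16.3, 19.3, 36.1 and 27.4 FPKM. Serpina1a, Serpina1d and Serpina1e were called lower as well, and the split between these copies is uncertain, since 57.6%, 50.9% and 34.6% of their 50-base stretches recur in other genes. Serpinf2, the plasmin inhibitor, was at 0.293, 0.348 and 0.284 FPKM against 13.4, 17.4, 25.3 and 18.4 FPKM.

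The median share left over the 30 called genes was 2.23% in KOAC10-5, 2.05% in KOAC10-7 and 2.03% in KOAC10-2. Single genes differed more between the 3, as the values of Afp, Alb and Fga above show. KOAC10-5 was the highest of the 3 in 12 genes, KOAC10-7 in 7 and KOAC10-2 in 11. KOAC10-7 was the lowest in 18 genes, KOAC10-2 in 7 and KOAC10-5 in 5. Over all 16095 genes, the lowest was KOAC10-7 in 5371, KOAC10-2 in 5068 and KOAC10-5 in 5656. Summed over the 30 genes, the level was 24.9, 14.7 and 18.9 FPKM in the Afp-low embryos and 635, 755, 1143 and 864 FPKM in the Afp-high embryos. The sum was 0.00183% to 0.00323% of all FPKM of an Afp-low embryo and 0.0824% to 0.148% of an Afp-high embryo.

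Inside each label that the groups share, the 30 called genes are below by the rule of the call, so only the size of the gap is described. The comparisons inside a label were added after the data were seen. Among embryos with KOAC10 labels, the Afp-low embryos were below KOAC10-8 by at least 1 on the log2 scale in 29 of the 30 genes. Hpx, the heme carrier hemopexin, was the exception (1.32% of all genes passed this rule). Inside the KO embryos, KOAC10-5 was below both others by at least 1 in 30 of 30 genes (1.3% of all genes), with a median difference of -2.39. Inside the WT embryos, the count was again 30 of 30 (0.982% of all genes), with a median difference of -2.91. These counts of size also follow in large part from the call itself and are no separate evidence.

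Of the liver secreted proteins compared, 5 were not called, and the 4 described here are also made outside the liver. Apoe, a lipoprotein ligand that macrophages, the yolk sac and glia make too, was at 60.6, 61.7 and 94.7 FPKM against 142, 127, 137 and 141 FPKM, a difference of -0.96 (standard error 0.19). The complement gene Cfb was at 1.67, 2.11 and 2.11 FPKM against 3.43, 4.59, 5.63 and 5.00 FPKM, a difference of -0.97 (standard error 0.10). Vtn, the adhesion protein vitronectin, was at 17.3, 14.9 and 16.7 FPKM against 17.8, 24.1, 24.7 and 22.6 FPKM. These 3 genes did not overlap between the groups but differed by less than the limit of 1. Ttr, the thyroxine carrier that the choroid plexus also makes, overlapped, at 15.3, 32.3 and 35.3 FPKM against 14.4, 15.1, 46.4 and 53.1 FPKM.

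The hepatoblast transcription factors did not share one pattern. Of 12 with a mean of at least 1 FPKM, only Hnf4a was called lower (0.615% of all genes were). It was at 0.0332, 0.129 and 0.138 FPKM against 1.32, 1.71, 2.45 and 2.00 FPKM, and reached a mean of 1 FPKM through the Afp-high embryos alone. HNF4A, a nuclear receptor of hepatoblasts and gut epithelium, was left at 5.35% of the Afp-high mean. Hhex, a homeobox gene of the liver bud, thyroid and endothelium, was at 2.18, 2.29 and 2.06 FPKM against 3.69, 3.65, 3.28 and 3.65 FPKM. Cebpa, Gata4 and Prox1 were also below in all 3 Afp-low embryos, with differences of -0.50, -0.48 and -0.17, and none of them reached the limit of 1. In all, 5 of the 12 were below in all 3 Afp-low embryos (7.12% of all genes were). Foxa2, a gene of the whole endoderm, notochord and floor plate, overlapped, at 2.65, 2.40 and 2.58 FPKM against 2.91, 3.74, 2.31 and 2.01 FPKM. Foxa3, of the endoderm, averaged under 1 FPKM and was below in all 3 Afp-low embryos, at 0.0233, 0.0202 and 0.0809 FPKM against 0.340, 0.463, 0.623 and 0.438 FPKM. Of the 7 listed factors under 1 FPKM, 4 were below in all 3 Afp-low embryos, Foxa3 among them (4.73% of all genes under 1 FPKM were). The median difference over the 12 was -0.16.

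Enzymes of liver metabolism were scarce in all embryos at this stage. Of 34 in the table, 24 averaged under 1 FPKM, among which 12 were below in all 3 Afp-low embryos (4.73% of all genes under 1 FPKM were). Of the 10 compared, 3 were below in all 3 Afp-low embryos (7.12% of all genes were). Fabp1, the fatty acid binding protein of liver and intestine, was the only one called (0.615% of all genes were called lower). It was at 0.0902, 0.408 and 1.23 FPKM against 3.26, 2.55, 10.54 and 8.52 FPKM. Soat2, which esterifies cholesterol in liver and gut, was at 0.385, 0.391 and 0.336 FPKM against 1.40, 1.65, 1.97 and 1.41 FPKM, a difference of -0.93 (standard error 0.10).

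Genes of hepatoblasts that other embryonic tissues use as well were called in 0 of 15 cases (0.615% of all genes were called lower). Their median difference was -0.09, and 2 of the 15 were below in all 3 Afp-low embryos (7.12% of all genes were). Dlk1, a surface protein by which hepatoblasts are sorted, was at 249, 257 and 262 FPKM against 262, 285, 316 and 375 FPKM. It did not overlap between the groups, but the gap between the nearest embryos was under 1 FPKM. Krt18, a keratin of simple epithelia, was at 9.68, 9.81 and 9.30 FPKM against 12.7, 17.5, 12.6 and 14.9 FPKM, a difference of -0.52. The growth factor gene Igf2, at 601 to 704 FPKM against 583 to 788 FPKM, and the epithelial marker Epcam, at 12.2 to 13.8 FPKM against 10.9 to 15.5 FPKM, overlapped.

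**Figure D2:**
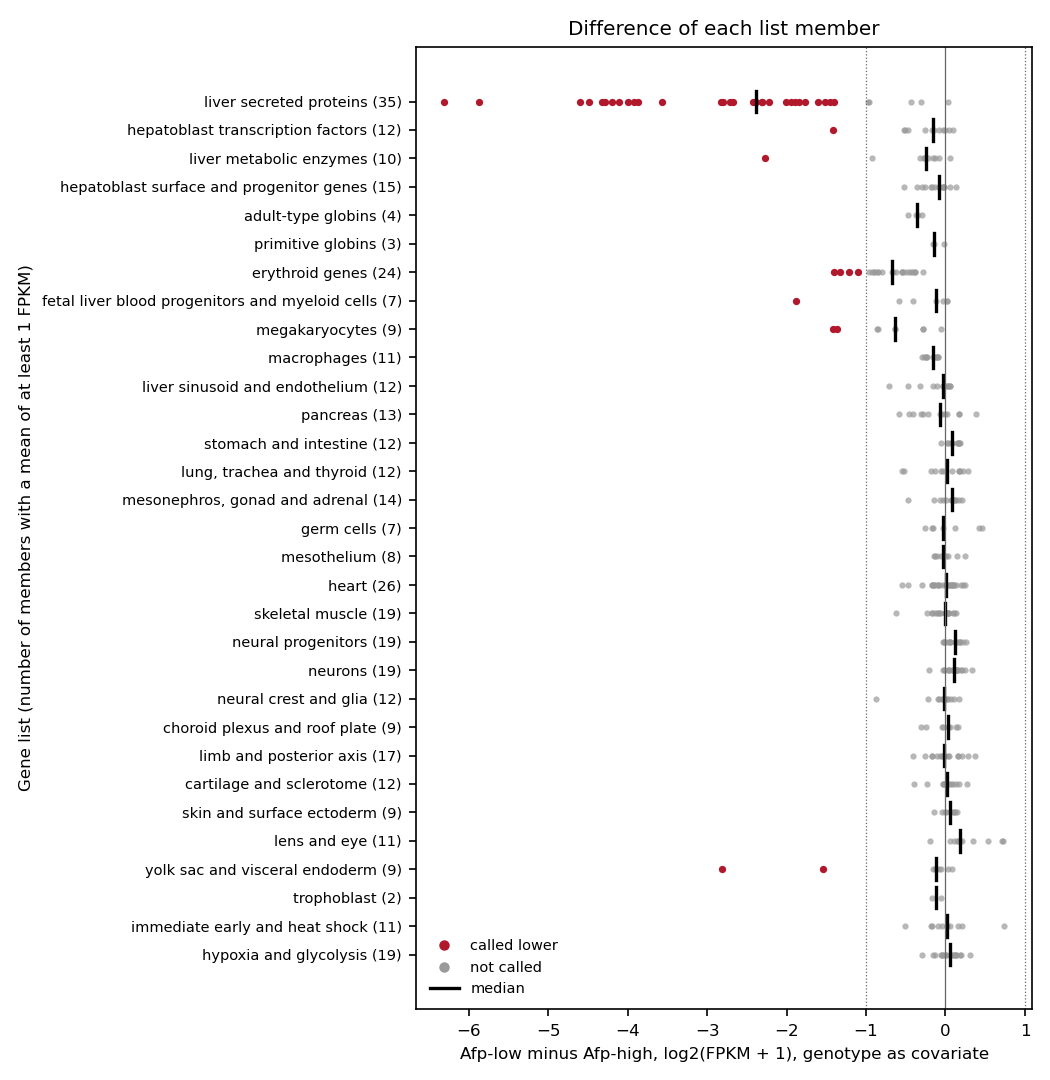
Genotype-adjusted difference of Afp-low from Afp-high embryos on the log2(FPKM + 1) scale for each member with a mean of at least 1 FPKM of 31 gene lists (points, red where called lower), with the median of each list as a black bar. The liver secreted proteins have a median of -2.38, the erythroid genes of -0.67 and the megakaryocyte genes of -0.64, and the lists of other organs lie around 0.

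Some blood cell genes were called lower, while most of those compared were not. Of 24 erythroid genes compared, 4 were called lower (0.615% of all genes were) and 0 higher, 13 were below in all 3 Afp-low embryos (7.12% of all genes were), and the median difference was -0.67. The called genes were the transcription factors Klf1, Gata1 and Gfi1b and the nuclear protein gene Hemgn. Klf1, an activator of the adult beta-globin genes, was at 2.94, 3.87 and 5.98 FPKM against 10.17, 8.85, 14.6 and 14.2 FPKM. Gata1, which drives red cell and megakaryocyte differentiation, was at 1.66, 2.55 and 3.40 FPKM against 5.56, 6.31, 10.002 and 7.42 FPKM. The Afp-low mean was 35.7% of the Afp-high mean for Klf1 and 34.6% for Gata1, well above the share left of the plasma protein genes.

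Genes of later red cell stages overlapped more. Slc4a1, the anion exchanger of the red cell membrane, was at 24.5, 38.7 and 54.9 FPKM against 42.0, 39.4, 62.5 and 64.2 FPKM. Alas2, the first enzyme of heme synthesis in red cells, was at 24.5, 41.6 and 56.1 FPKM against 39.2, 47.0, 49.7 and 55.4 FPKM. In both genes KOAC10-5 lay below all Afp-high embryos, while KOAC10-2 lay within them for Slc4a1 and above them for Alas2. Car1, a carbonic anhydrase of definitive red cells, averaged under 1 FPKM and was at 0.0454, 0 and 0.0395 FPKM against 0.831, 0.826, 1.45 and 2.20 FPKM. It was left at 2.13% of the Afp-high mean, a share like that of the plasma protein genes.

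The erythroid genes ranked the 3 Afp-low embryos in nearly one order. KOAC10-5 was the lowest of the 3 in 22 of the 24 genes and KOAC10-2 the highest in 22. Over all 16095 genes, these counts were 5656 and 5333. The median level was 42.9% of the Afp-high mean in KOAC10-5, 58.95% in KOAC10-7 and 81.5% in KOAC10-2. Among the Afp-high embryos, KOAC8-1 was the highest in 14 of the 24 genes and KOAC9-1 in 8, and the KO embryos KOAC8-6 and KOAC10-8 were the lowest in 13 and 9. KOAC10-5 is the only KO embryo of the Afp-low group, so genotype and embryo cannot be told apart in this order. Between KO and WT embryos of both groups, 17 of the 24 genes had an unadjusted p under 0.05 in limma with the Afp group as a covariate (11.9% of all genes), with a median difference of -0.49, and 0 passed the adjusted threshold (lowest adjusted p = 0.0739). Both Afp-high KO embryos were below both Afp-high WT embryos in 20 of the 24 (22.2% of all genes). Erythroid genes, by any size of difference, were below in 15 of 24 within the KOAC10 labels (39.3% of all genes), 24 of 24 within the KO embryos (36.9% of all genes) and 22 of 24 within the WT embryos (21.4%).

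Globins, the most abundant transcripts of red cells, did not split with Afp over the 7 embryos together. None of the 4 adult-type and none of the 3 primitive globin genes was called or lay outside the other group. Within the WT embryos, 4 of 4 adult-type genes were below at any size (21.4% of all genes), with a median difference of -0.68. They were below in 1 of 4 within the KO embryos (36.9% of all genes) and 0 of 4 within the KOAC10 labels (39.3%). The primitive genes were below in 0 of 3 within the WT embryos, 3 of 3 within the KO embryos and 1 of 3 within the KOAC10 labels. The adult-type gene Hba-a1 was at 3124, 4704 and 5177 FPKM in the Afp-low and at 2800, 3753, 5430 and 8572 FPKM in the Afp-high embryos. Hbb-y, the beta-like globin of primitive red cells, was at 7940, 12174 and 15294 FPKM against 9229, 9426, 13025 and 12130 FPKM. The adult-type genes Hbb-bs and Hbb-bt made up 5.90%, 8.21% and 9.39% of the FPKM of the 4 beta-like globins in the Afp-low embryos and 5.08%, 2.49%, 14.7% and 21.2% in the Afp-high embryos. The lowest and the highest share thus both belonged to Afp-high embryos, KOAC10-8 (KO) and KOAC9-1 (WT). Hba-a1 and Hba-a2, and likewise Hbb-bs and Hbb-bt, are near-identical copies, so the split within each pair is uncertain.

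Platelet genes gave 2 calls among 9 megakaryocyte genes compared (0.615% of all genes were called lower), with 6 below in all 3 Afp-low embryos (7.12% of all genes) and a median difference of -0.64. Pf4, a chemokine of platelet granules, was at 13.1, 15.2 and 18.0 FPKM against 34.4, 36.6, 49.0 and 39.2 FPKM. Ppbp, a chemokine precursor from the same granules, was at 3.49, 5.14 and 6.18 FPKM against 13.9, 12.5, 17.1 and 12.9 FPKM. Mpo, the peroxidase of granulocyte precursors, was the one call among 7 genes of blood progenitors and myeloid cells (0.615% of all genes were called lower). It was at 0.668, 1.11 and 1.95 FPKM against 7.03, 4.49, 10.3 and 5.75 FPKM. Of the 7, 3 were below in all 3 Afp-low embryos (7.12% of all genes were). Kit, a receptor of blood progenitors and also of melanoblasts and germ cells, overlapped, at 10.49, 9.52 and 12.7 FPKM against 11.8, 11.2, 10.99 and 10.6 FPKM. Among 11 macrophage genes, 0 were called and 1 was below in all 3 Afp-low embryos (7.12% of all genes were).

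Genes shared by all endothelium differed little. Of 12 genes of sinusoid and other endothelium compared, 0 were called (0.615% of all genes were called lower), and the median difference was -0.04. Of the 12, Cdh5 and Gata4 were below in all 3 Afp-low embryos (7.12% of all genes were). Pecam1, an adhesion protein between endothelial cells, was at 16.1 to 17.7 FPKM against 15.6 to 18.0 FPKM. Oit3 and Stab2, which are enriched in liver sinusoids, averaged under 1 FPKM and were below in all 3 Afp-low embryos. Oit3 was at 0.342, 0.348 and 0.417 FPKM against 1.49, 1.58, 1.51 and 1.29 FPKM, 25.2% of the Afp-high mean, and Stab2 was left at 25.5%.

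**Figure D3:**
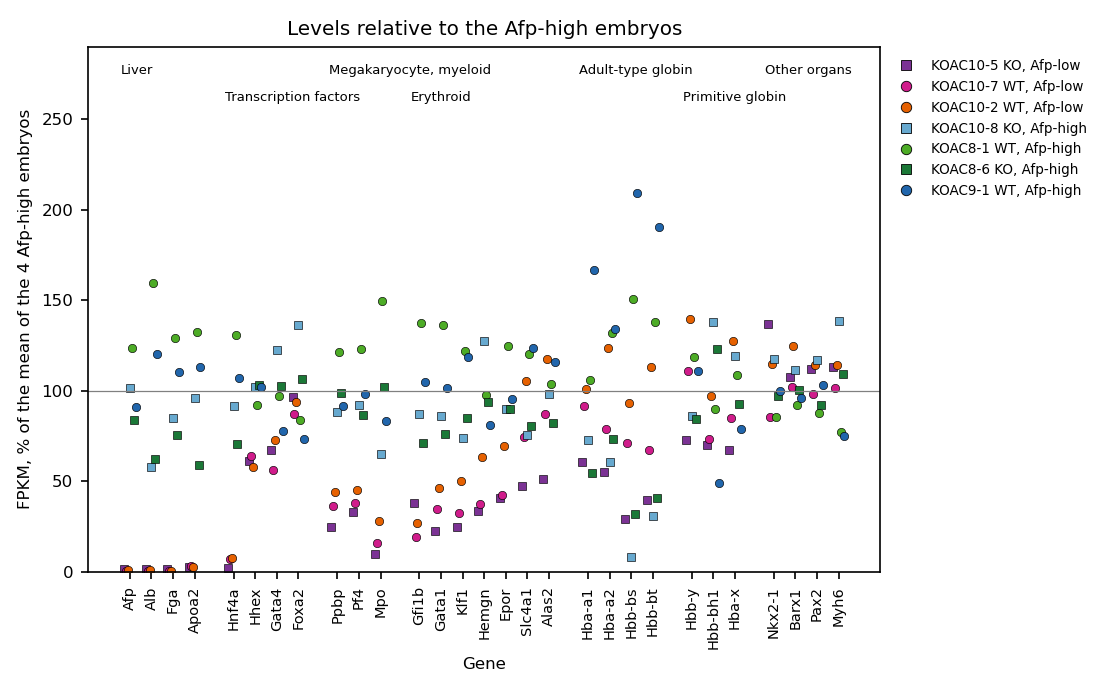
FPKM of single genes in each embryo as a percent of the mean of the 4 Afp-high embryos, with squares for KO and circles for WT embryos. Plasma protein genes and Hnf4a lie near 0 in the 3 Afp-low embryos, platelet, myeloid and early erythroid genes lie in between, and globins and genes of other organs scatter around 100% in both groups.

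Other visceral organs did not follow the liver. None of the members compared was called for pancreas (13 genes), stomach and intestine (12), lung, trachea and thyroid (12), mesonephros, gonad and adrenal (14), germ cells (7), mesothelium (8) or heart (26). Their medians lay between -0.06 and 0.08, and 0.615% of all genes were called lower. Nkx2-1, the factor of the lung and thyroid buds and of the ventral forebrain, was at 11.2, 7.00 and 9.35 FPKM against 7.95, 9.60, 6.96 and 8.16 FPKM. Barx1, a homeobox gene of the stomach mesenchyme and the jaw, was at 30.1, 28.5 and 34.8 FPKM against 28.0, 31.2, 25.8 and 26.7 FPKM. The pancreatic hormone gene Gcg was low in all embryos and overlapped, at 0.176, 2.39 and 2.22 FPKM against 1.52, 1.12, 2.26 and 2.97 FPKM. Pax2, of the mesonephric duct and parts of the nervous system, was at 6.39, 5.59 and 6.53 FPKM against 5.25, 6.67, 5.01 and 5.89 FPKM. The heart myosin gene Myh6 was at 53.1, 47.8 and 53.6 FPKM against 51.4, 65.1, 36.2 and 35.2 FPKM. Of the genes compared in these 7 lists, only Gata4 and Hhex were below in all 3 Afp-low embryos (7.12% of all genes were). Gata4 stands in the heart, gonad and hepatoblast lists, and Hhex in the thyroid list.

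The body wall, nervous system and skin were likewise without calls. Skeletal muscle, neural progenitors, neurons, neural crest and glia, choroid plexus, limb, cartilage, skin and lens gave 0 called genes, with medians from -0.02 to 0.18. Over all genes, 0.615% were called lower and 0.087% higher, so little is read from 0 calls in lists of this size. Above in all 3 Afp-low embryos were 3 of 19 neuron, 2 of 11 lens and 1 of 12 cartilage genes (4.48% of all genes were). Another 1 of the 12 cartilage genes was below in all 3 (7.12% of all genes were). In the lens the crystallin gene Cryaa was at 19.8, 16.7 and 17.8 FPKM against 10.3, 3.76, 10.85 and 20.5 FPKM, so that the groups overlapped through KOAC9-1. Immediate early and hypoxia genes, which respond to handling and low oxygen, gave 0 calls in 11 and 19 identifiers compared, with the same shares over all genes.

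The yolk sac shares many transcripts with the liver, and the list for it was read beside that of the liver. Of 9 genes compared, 2 were called lower (0.615% of all genes were). Apoc2, the cofactor of lipoprotein lipase, was at 0.257, 0.0936 and 0.167 FPKM against 4.12, 4.06, 10.45 and 10.4 FPKM, a level that is uncertain because 78.3% of its 50-base stretches recur in Gm44805. Spink1, a trypsin inhibitor, was at 0, 0.205 and 0.103 FPKM against 2.20, 1.47, 3.56 and 1.59 FPKM. The endocytic receptor genes Amn and Cubn, which mark visceral endoderm and kidney, were at 0.157 to 0.410 FPKM in the Afp-low and 0.181 to 0.271 FPKM in the Afp-high embryos and overlapped. Trophoblast gave 0 calls in the 2 genes compared.

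Of the 99 genes called lower, 42 belonged to a list and 57 did not. Of the 57, 30 were protein coding, and the others were mostly pseudogenes and noncoding RNAs. The genes named in this paragraph and the next were chosen after their values were seen. Several of the 30 are known from liver. Igfbp1, a binding protein of insulin-like growth factors, was at 0.174, 0.574 and 0.227 FPKM against 3.09, 3.02, 2.46 and 1.88 FPKM. The carboxypeptidase gene Cpn1, the complement gene Cfi, the phosphoprotein gene Spp2, the serine protease gene Habp2 and Gulo, the last enzyme of vitamin C synthesis, were called as well, with differences between -1.67 and -1.08. Others are known from blood cells. Pklr, the pyruvate kinase of liver and red cells, was at 2.34, 1.52 and 2.50 FPKM against 9.20, 6.61, 11.5 and 12.2 FPKM. Ikzf1, the lymphoid and erythroid factor Ikaros, was at 1.23, 4.503 and 2.99 FPKM against 12.03, 13.2, 10.95 and 7.02 FPKM. Cpox, of heme synthesis, was at 20.2, 18.3 and 21.2 FPKM against 35.9, 38.4, 49.4 and 44.0 FPKM, and Prg2, a granule protein of eosinophils, at 0.486, 0.240 and 0.360 FPKM against 5.41, 1.74, 3.32 and 4.94 FPKM.

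The metallothioneins, which bind zinc and copper and are abundant in fetal liver, were lower with a wide spread. Mt1 was at 26.7, 16.8 and 20.7 FPKM against 39.8, 43.1, 117 and 67.9 FPKM. Mt2 was at 18.0, 11.5 and 10.4 FPKM against 29.8, 26.4, 99.0 and 58.0 FPKM. The Afp-high WT embryos stood above the Afp-high KO embryos in both genes. Mt3, the form found mainly in brain, overlapped. Asns, the asparagine synthetase gene, was called with an adjusted difference of -1.07 (standard error 0.63), but its value of 124 FPKM in KOAC10-8 was far above the 22.9 to 30.9 FPKM of the other Afp-high embryos, and the Afp-low embryos were at 15.8 to 16.3 FPKM.

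The 10 genes most like Afp over the 7 embryos, by Pearson's r of log2(FPKM + 1), had coefficients from 0.989 to 0.996. They were Trf and the gene that overlaps it, Itih2, Ambp, Alb, Serpinf2, Fgb, the chemokine gene Ccl27a, and the pseudogenes Gm49832 and Gm2446. The 7 points fall into 2 clusters and share their libraries, so these coefficients describe the split and carry no p-value. Ccl27a was at 6.31, 5.85 and 5.98 FPKM against 24.6, 28.9, 24.1 and 27.6 FPKM, and 45.0% of its 50-base stretches recur in other genes.

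Near absence was defined as under 0.1 FPKM in all 3 Afp-low embryos and at least 1 FPKM in all 4 Afp-high embryos. It held for 10 genes, of which 6 code for plasma proteins. These were Fga, Fgb, Serpina1e, Ahsg, which codes for the mineral-binding carrier fetuin-A, Kng1, the kininogen gene, and the coagulation factor gene F12. Ahsg was at 0.0757, 0.0567 and 0.0858 FPKM against 2.78, 2.15, 7.33 and 6.85 FPKM, and Kng1 at 0.0233, 0.00870 and 0.0283 FPKM against 1.77, 1.74, 4.11 and 3.83 FPKM. F12 was at 0.0801, 0.0419 and 0.0104 FPKM against 1.22, 1.33, 2.32 and 1.38 FPKM and averaged under 1 FPKM over all embryos. The remaining 4 genes were the pseudogenes Gm49832, Gm2446, Gm6055 and Gm8822, each listed at 0 in all 3 Afp-low embryos.

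The levels of these pseudogenes are uncertain, because they share their sequence with other genes. Among the called genes, 13 of 14 processed pseudogenes share at least 50% of their 50-base stretches with another gene, against 4 of 74 protein-coding genes. Gm2446 was at 14.5, 18.2, 13.2 and 12.8 FPKM in the Afp-high embryos, and its copy Gm2436, which holds 99.9% of its stretches, was at 17.3, 16.0 and 13.5 FPKM in the Afp-low embryos and listed at 0 in the Afp-high embryos. The sum of both copies overlapped between the groups, at 13.5 to 17.3 FPKM against 12.8 to 18.2 FPKM. The snoRNA gene Snora43 has 2 identifiers with the same sequence, of which one was listed at 0 in the Afp-high embryos and at 92.4, 58.0 and 61.9 FPKM in the Afp-low embryos. Their sum was 229.5, 185 and 186 FPKM in the Afp-low and 213, 267, 235 and 226 FPKM in the Afp-high embryos, which overlap. Gm49832, of which 99.2% is shared with the splicing factor gene Hnrnpa1, was at 1878 to 1971 FPKM in the Afp-high embryos, while Hnrnpa1 was at 1237 to 1257 FPKM in the Afp-low and 1163 to 1411 FPKM in the Afp-high embryos. The part of read assignment in these values was not tested.

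**Figure D4:**
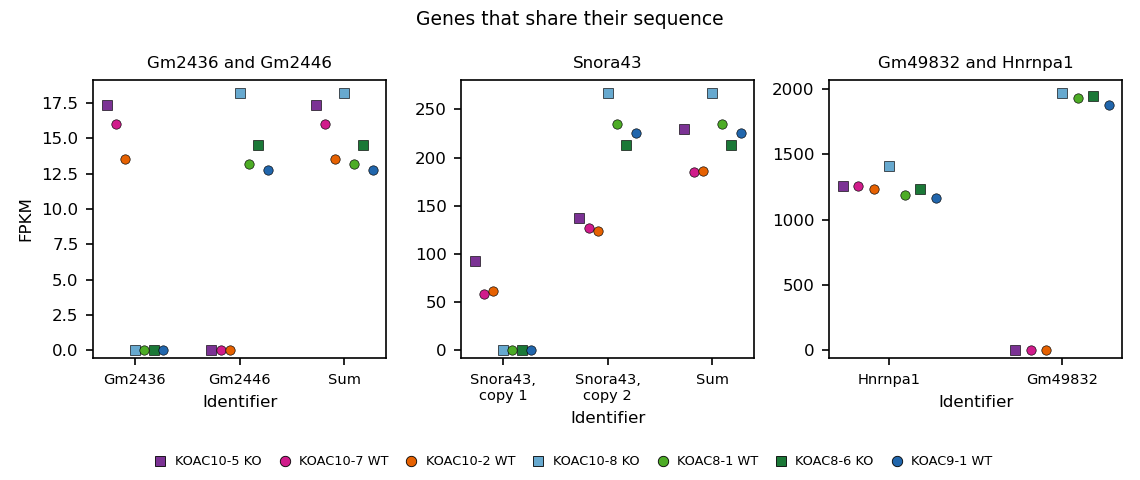
FPKM per embryo of the copies Gm2436 and Gm2446 and of the identifiers of Snora43 with their sums, and of Gm49832 beside Hnrnpa1, with squares for KO and circles for WT embryos. Single copies are listed at 0 in one group, and the sums of both copies overlap between the groups.

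Of the 14 genes called higher in the Afp-low embryos, 2 were protein coding and most of the others were short structural RNAs or pseudogenes. Nckipsd, a regulator of actin assembly, was at 21.8, 17.6 and 22.5 FPKM against 7.34, 10.6, 9.13 and 7.85 FPKM. Rn7sk, the 7SK RNA that restrains transcript elongation, was at 234, 272 and 258 FPKM against 109, 64.0, 87.3 and 63.0 FPKM, a level that is uncertain because 68.1% of its 50-base stretches recur in Gm24447. Rmrp, the RNA of the RNase MRP complex, was at 77.9, 77.5 and 64.5 FPKM against 20.1, 15.9, 21.5 and 15.8 FPKM when its 2 identifiers were summed. Histone genes, grouped after their values were seen, gave 1 call among 48 identifiers compared (0.087% of all genes were called higher). Of the 48, 19 were above in all 3 Afp-low embryos (4.48% of all genes were), and the median difference was 0.39. The 8 mitochondrial tRNA genes had a median of 0.85, but 0 were called and only 1 was above in all 3 Afp-low embryos. The classes of snRNA and snoRNA had medians of 0.14 and -0.01. Most of these RNAs lack a long poly(A) tail, and the library kit selects poly(A) RNA, and the part of library preparation in these values was not tested. The count of 14 rose to 20 to 36 when single embryos were left out.

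KO and WT embryos were then compared with the Afp group as a covariate, a comparison whose labels the Afp limit did not use. In limma, 7 of the 16095 genes (0.0435%) had an adjusted p under 0.05, with 2 without KOAC8-6 and up to 10 without another embryo, and 1914 (11.9%) an unadjusted p under 0.05. The 7 were Rps18, Nutf2-ps1, Gm11361, Gm3650, Gm10260, Gm48348 and H2-Q7, and none was called between the Afp groups. Rps18 was lower in KO embryos, at 152 to 163 FPKM against 1169 to 1184 FPKM in WT, as were Gm3650, Gm48348 and H2-Q7. Gm11361 was higher in KO, at 672 to 842 against 197 to 220 FPKM. Gm10260 was also higher, at 1410 to 1712 against 646 to 723 FPKM. Nutf2-ps1 had values of 12.8 to 16.7 FPKM in KO embryos only. Shared sequence was not computed for these 7 genes, so the part of read assignment in their differences was not tested. Among the 35 liver secreted proteins, 0 passed the adjusted threshold and 10 had an unadjusted p under 0.05, all lower in KO embryos. The nearest was Ttr, with a difference of KO from WT of -1.45 (standard error 0.13, adjusted p = 0.0534 in limma). For Afp it was 0.33 (standard error 0.32, adjusted p = 0.692 in limma). The 4 adult-type globins were lower in KO embryos with unadjusted p-values under 0.05 in limma, the largest difference being that of Hbb-bs at -2.66 (standard error 0.59, adjusted p = 0.2998), and none passed the adjusted threshold.

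Within the Afp-high embryos the plasma protein genes also varied, with KOAC8-1 above the others throughout. KOAC8-1 was the highest of the 4 in 30 of the 30 called genes, and the lowest was KOAC8-6 in 22 and KOAC10-8 in 8. Over all 16095 genes, these counts were 2918, 3771 and 4331. The median level was 72.5% of the mean of the 4 in KOAC8-6, 86.0% in KOAC10-8, 106% in KOAC9-1 and 141% in KOAC8-1. Both KO embryos were below both WT embryos in 24 of the 30 genes (22.2% of all genes), and the KO mean was below the WT mean in 30 of 30, at a median of 64.8% of it. The share was smallest for Ahsg at 34.7%, Serpinc1 at 40.2% and Alb at 43.0%, and largest for Afp and Trf at 86.2%. With 2 embryos on each side, these values are given without a test.

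**Figure D5:**
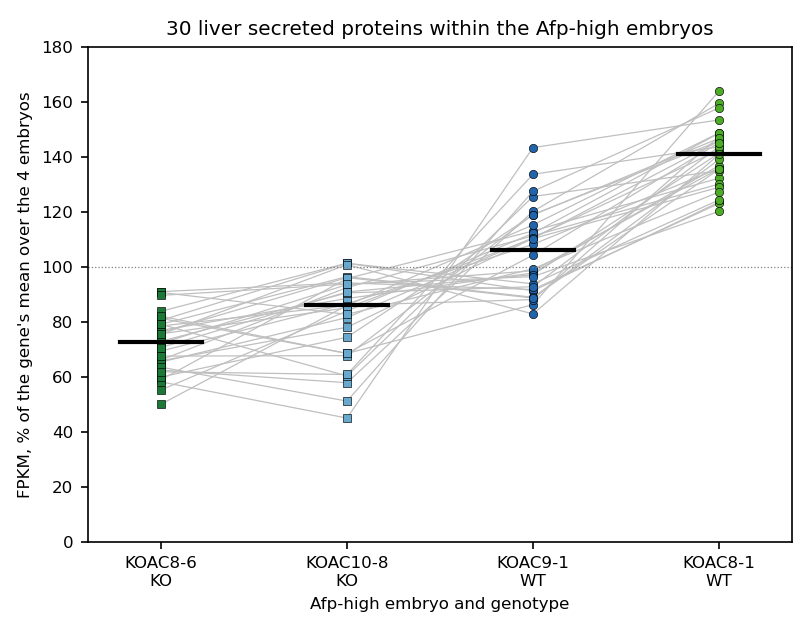
FPKM of each of the 30 called liver secreted proteins in the 4 Afp-high embryos as a percent of the mean of the gene over these embryos, with a line per gene and a black bar at the median of each embryo. The medians are 72.5% and 86.0% in the KO embryos and 106% and 141% in the WT embryos, and KOAC8-1 is the highest for every gene.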

How the data were processed

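The transcripts of 7 whole E11.5 embryos (3 KO, 4 WT) had been sequenced after total RNA extraction and poly(A) library preparation, with 1 library per embryo. The authors deposited 1 table with an FPKM value per gene and embryo. The processing notes of the submitters name Salmon, DESeq2, MultiQC and GRCm38 without versions, and further settings are not given in the sources used here. The table also holds the authors' own comparison of KO with WT (mean, fold change, its error and p-values), which was not used. All FPKM columns were matched to an embryo by its label, and genotype was taken from the labels.

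FPKM values were analysed as log2(FPKM + 1) with limma 3.58.1 in R 4.3.3 over 16095 genes whose mean reached 1 FPKM, since FPKM values are not counts. A fold on this scale understates the change of low genes. The model held the Afp group and genotype. The Afp groups were set by Afp in the same values, so their difference was used without p-values. KO and WT embryos were compared with the moderated test of limma with an intensity trend and Benjamini-Hochberg adjustment at 0.05. The p-values measure the spread between single embryos. On simulated data, with 200 of 16095 genes changed between KO and WT, the test recovered 164 genes at a log2 change of 1, with 10 false calls. It recovered 188 at a log2 change of 2, with 14 false calls. The simulated noise was normal and independent between genes, without an Afp group difference, so these counts need not hold for the real embryos. The exact permutation and Fisher's exact tests were run with scipy 1.17.1.

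The Afp limit and the gene lists were chosen with earlier results of these data known. Genes named are the markers, Slmap, list members, the 15 largest differences called in each direction, nearly absent genes, genes that differed between KO and WT, and the 10 genes most like Afp, and others are said to be chosen after their values were seen. Gene positions are those of GENCODE M21 (25447 of 25461 identifiers), and promoter sequences those of RefSeq. Shared sequence is the percent of 50-base stretches of a gene's transcripts that also occur in another gene. Alternatives were other pseudocounts, filters and scalings, subsets of embryos and the omission of each embryo. Covariates for sex and for KOAC10 against the other label series were also tried. Some genes and motifs that were computed are not reported here.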

Additional observations from a re-analysis of the deposited data

Results flagged for a closer look

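In groups of 4 embryos, a value was looked at again where the gap from the highest or lowest embryo to its neighbour exceeded Dixon's critical share of the range. This held for 9 of 204 groups of 101 named genes, and chance alone flags about 1 in 20 groups. KOAC8-1 was set apart above the other Afp-high embryos in 3 plasma protein genes, with a share of the range of 0.901 for Trf, 0.86 for Apoc1 and 0.857 for F12. It was set apart below them for Hhex, with 0.897. KOAC8-6 was set apart below the other Afp-high embryos for Gm20425 (ENSMUSG00000090639), which overlaps Trf, with 0.906. KOAC10-8 was set apart above for Asns, with 0.921. Among the WT embryos, the male KOAC9-1 was set apart for Eif2s3y (1.0) and Xist (0.918), and for the single identifier of Rmrp that was listed at 0 in the other WT embryos (1.0).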

How the results depend on the processing

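The count of 99 genes lower in the Afp-low embryos was 213 with KOAC10 labels only, of which 81 were shared, and 47 with a minimum mean of 5 FPKM. It was 100 to 137 with single embryos left out, with 87 to 98 of the 99 shared. The count of 14 higher genes was 23 with a pseudocount of 0.01 FPKM and 20 to 36 with single embryos left out (33 without KOAC10-5, 26 without KOAC10-8, 27 without KOAC10-7, 23 without KOAC9-1 and 36 without KOAC10-2). The count of 7 genes between KO and WT was 4 with Xist as a covariate, 4 with a minimum mean of 5 FPKM and 2 to 10 with single embryos left out. The median difference of the liver secreted proteins was -3.99 with a minimum mean of 5 FPKM, -1.92 without a filter, -4.61 with a pseudocount of 0.1 and -5.20 with 0.01 FPKM, and -2.50 to -2.26 with single embryos left out. That of megakaryocyte genes was -1.20 and -1.29 with these pseudocounts. With the label series as a block, medians were -0.20 for hepatoblast surface genes, -0.59 for primitive globins, -0.23 for blood progenitors, -0.15 for endothelium, -0.03 for stomach and intestine, 0.17 for mesonephros and gonad, -0.14 for heart, -0.12 for neural progenitors, -0.10 for neural crest, -0.14 for choroid plexus and -0.52 for trophoblast. A minimum mean of 5 FPKM gave -0.03 for blood progenitors and 0.72 for lens, and left no trophoblast gene. The median for mesonephros was 0.01 without a filter and 0.03 to 0.16 with single embryos left out, that for stomach 0.06 to 0.20 and that for germ cells -0.14 to 0.05. The median of the 5 sex genes was 0.04 with Xist as a covariate, where it changed sign, -4.63 with the label series, -2.90 with a pseudocount of 0.01 FPKM and -2.83 to -0.98 with single embryos left out. The cause of these shifts was not tested. The other 557 values stayed within 1.5 times the count, or within 1 SD of the list mean between embryos of an Afp group for a median. This SD was wide for some lists, so that skeletal muscle moved from -0.01 to 0.40 and adult-type globins from -0.35 to -0.03 with the label series as a block, and the latter to -0.68 without KOAC10-5. No paired analysis was run, since the labels name no pairs of KO and WT embryos and do not say what the series stands for. With KOAC10 against other labels as a block, 7 genes differed between KO and WT, 5 of them among the 7 without the block. Both sides of this block hold KO and WT embryos, while KOAC9 holds only the WT embryo KOAC9-1. The depth per library is known only in relative terms, so a gene listed at 0 sets no upper limit.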

Other observations

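Skeletal muscle, which was without calls between the Afp groups, differed among the embryos in another order. Of 19 muscle genes compared, 16 had an unadjusted p under 0.05 (11.9% of all genes) between KO and WT embryos in limma with the Afp group as a covariate, with a median difference of -0.70, and 0 passed the adjusted threshold (lowest adjusted p = 0.273). KOAC10-5 was the lowest of the 3 Afp-low embryos in 17 of these genes, and KOAC10-8 the lowest of the 4 Afp-high embryos in 16. Both are KO embryos. Over all 16095 genes, the counts were 5656 for KOAC10-5 and 4331 for KOAC10-8.

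Genes of hypoxia and glycolysis had the opposite sign. Of 19 identifiers compared, 13 had an unadjusted p under 0.05 (11.9% of all genes) in the same limma fit, with a median difference of 0.39, and 0 passed the adjusted threshold (lowest adjusted p = 0.138). KOAC10-5 was the highest of the Afp-low embryos in 17, and KOAC8-6 the highest of the Afp-high embryos in 13. Over all 16095 genes, these counts were 5307 and 3246. Among neural progenitor genes, KOAC10-7 was the lowest of the Afp-low embryos in 19 of 19 (5371 of 16095 over all genes). All genes of an embryo come from 1 library, so such counts are no repeated evidence.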
